A study of Homo sapiens with 10 samples.

Results

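The small leucine-rich proteoglycans (SLRPs) are secreted matrix proteins, and 8 of their genes were followed here by symbol through every RNA-seq library of the study: BGN (biglycan), DCN (decorin), LUM (lumican), FMOD (fibromodulin), ASPN (asporin), OGN (osteoglycin), PRELP and OMD (osteomodulin). Of these 8 genes among the 24050 listed in either deposited count table, 6 had a row in the NPC table and 4 in the HEK293T table. ASPN and OMD had a row in neither and were not analysed here.

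The study compared wild-type (WT) cells with cells in which ZNF274, a gene for a zinc finger protein with KRAB and SCAN domains, had been deleted with Cas9 and a pair of guides flanking the gene (KO). It used HEK293T, an embryonic kidney cell line (3 WT and 3 KO libraries), and neural progenitor cells (NPCs) made through embryoid bodies from the H1 human embryonic stem cell line (2 WT and 2 KO libraries). The series text describes the replicates as independent clones of each genotype. Transfected cells were selected with puromycin, and which clone gave which library is not given in the labels. Library names are those of the labels, S15 to S17 for WT and S18 to S20 for KO HEK293T cells, S3 and S5 for WT and S1 and S2 for KO NPCs. The libraries held 21421013 to 32285876 counts in HEK293T cells and 18621266 to 23035490 in NPCs. A level of 3 counts, taken as the floor, corresponds to between 0.0921 and 0.154 CPM, which are counts scaled to a common library size.

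The deleted gene was checked in every library. ZNF274 counts were 491 and 496 in WT NPCs and 0 in S1 and S2, at least 172-fold lower. In WT HEK293T cells they were 445, 423 and 492, and in S18, S19 and S20 they were 0. The library S18 stood apart from the other KO HEK293T libraries (chi-square per degree of freedom 72.0 and 81.9, against 26.3 between S19 and S20). Among WT HEK293T libraries this value was highest between S15 and S16, at 45.5. In NPCs it was 31.3 between the WT libraries S3 and S5 and 10.5 between the KO libraries S1 and S2. Of the 12 neural progenitor markers, SOX2, PAX6, NES, FABP7, LHX2 and SOX3 each had at least 407 counts in both WT NPC libraries, while DLX2 had 2 and 0 counts. The same libraries also held LIN28A, a pluripotency gene, at 1346 and 1654 counts, and COL1A1, a fibroblast collagen gene, at 13603 and 10903 counts. Other pluripotency markers were mixed, with DPPA4 at 1566 and 1486 counts but NANOG at 5 and 3. Mesenchyme and fibroblast markers were mixed too, with THY1 at 1999 and 1794 counts but TWIST1 at 5 and 3.

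An SLRP consists of a core of leucine-rich repeats that binds collagen fibrils and growth factors, to which sugar chains are attached in many members. Biglycan, decorin and asporin form class I, of which biglycan and decorin carry chondroitin or dermatan sulfate chains, and all bind TGF-β. Class II holds lumican, fibromodulin, PRELP and osteomodulin, several of which carry keratan sulfate, and class III holds osteoglycin. They are abundant in skin, tendon, cartilage, bone and cornea. In the nervous system they are known mostly from meninges, vessels and scars.

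The genes lie in small groups. In hg19, BGN stands alone at chrX:152760438-152775004 on the plus strand, with the start of HAUS7 overlapping it on the minus strand. LUM (chr12:91496406-91505271) and DCN (chr12:91534261-91576994) are adjacent on the minus strand. FMOD (chr1:203309756-203320886, minus strand) and PRELP (chr1:203444934-203460480, plus strand) are neighbours on opposite strands. OGN (chr9:95145550-95166978), OMD (chr9:95174662-95186753) and ASPN (chr9:95218487-95244788) are all on the minus strand inside the span of CENPP, which is transcribed from the plus strand. The library kit was stranded, but whether the reads were counted by strand is not given in the sources used here, so sense and antisense reads at BGN and OGN cannot be told apart.

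The promoter sequences of BGN, PRELP and FMOD are shown because BGN and PRELP were the genes that passed the test in NPCs, in opposite directions, and FMOD is the neighbour of PRELP with no such change. Each is the 250 bases before a RefSeq start site in GRCh38.p14, printed from 5′ to 3′ on the strand of the gene. Of 5 motifs searched on either strand, capitals mark the matches to 4, which were TATAAA for the so-called TATA box, GGGCGG for the box bound by factors such as SP1 (the GC box), the pentamer that names the CCAAT box, and TGANTCA for the site of the factor AP-1. The other was the E-box, CANNTG, which had 0 matches in these 3 stretches and is present in 61.8% of all RefSeq promoters of that length. The stretches are chrX:153494730-153494979 (plus strand), chr1:203475556-203475805 (plus strand) and chr1:203351123-203351372 (minus strand), in that order.
BGN: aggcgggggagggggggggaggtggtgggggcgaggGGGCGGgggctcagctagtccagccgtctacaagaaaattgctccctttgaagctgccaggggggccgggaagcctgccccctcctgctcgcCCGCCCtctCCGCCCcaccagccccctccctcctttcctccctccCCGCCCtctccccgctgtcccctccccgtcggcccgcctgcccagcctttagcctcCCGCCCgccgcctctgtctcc
PRELP: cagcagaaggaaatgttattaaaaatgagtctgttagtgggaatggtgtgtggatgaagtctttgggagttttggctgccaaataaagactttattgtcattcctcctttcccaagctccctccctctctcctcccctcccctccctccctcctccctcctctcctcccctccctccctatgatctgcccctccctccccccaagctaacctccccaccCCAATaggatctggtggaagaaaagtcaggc
FMOD: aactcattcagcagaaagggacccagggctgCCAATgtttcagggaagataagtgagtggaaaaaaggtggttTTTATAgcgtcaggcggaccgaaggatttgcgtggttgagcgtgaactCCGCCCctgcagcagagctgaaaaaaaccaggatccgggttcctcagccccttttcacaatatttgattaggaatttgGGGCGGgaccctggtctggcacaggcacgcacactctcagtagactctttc

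The BGN stretch was 74.0% G and C and held 16 CpG dinucleotides. The medians of all 35116 RefSeq promoters of the same length were 58.0% and 11. It held 5 GC boxes, whose first bases lay 214, 122, 113, 77 and 21 bases before the start, and no TATA box or CCAAT box. A GC box was present in 42.6% of all promoters, a CCAAT box in 32%, a TATA box in 10.7% and an AP-1 site in 6.57%. The PRELP stretch was 52.8% G and C, held 0 CpG and had a CCAAT box 31 bases before the start. The FMOD stretch was 51.6% G and C, with 9 CpG, a CCAAT box at 219, a TATA box at 177 and GC boxes at 129 and 51 bases before the start. RefSeq promoters were matched for 5 of the 8 genes, and DCN, LUM and OMD had none. A match of letters is a description of the sequence and does not show a site in use.

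The main comparison asked how loss of ZNF274 changed these genes in NPCs. BGN was up-regulated from a low to a high level. It had 209 and 151 counts (9.89 and 7.73 CPM) in the WT libraries S3 and S5 and 12727 and 10521 counts (629 and 474 CPM) in the KO libraries S1 and S2. Both KO libraries lay far above both WT libraries. The mean rose from 8.81 ± 1.53 to 551 ± 109 CPM (SD, n = 2 per group), a ratio of means of 62.6. The fitted log2 FC was 5.96 with a standard error (SE) of 0.211 (edgeR adjusted P = 2.06e-05). Ranked by counts among the 20965 genes of the NPC table, BGN moved from places 9546 and 10096 in WT to 218 and 332 in KO. In bulk RNA, more cells that express BGN and more BGN RNA per cell cannot be told apart. The study also made single-cell RNA-seq libraries of WT and KO NPCs, which were not used here.

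PRELP, which anchors basement membranes to connective tissue, moved the other way. It had 51 and 19 counts (2.41 and 0.973 CPM) in WT and 5 and 8 counts (0.247 and 0.360 CPM) in KO NPCs. The groups did not overlap, although the WT libraries differed by more than the KO libraries did. The fitted log2 FC was −2.45 (SE 0.663, edgeR adjusted P = 0.0319), and the call was lost under several alternatives. With voom, the study's test, the log2 FC was −2.28 (adjusted P = 0.0677), and with all 10 libraries in one fit −2.44 (adjusted P = 0.0514). Without the WT library S3 the log2 FC was −1.65 (adjusted P = 0.163), without the KO library S1 −2.22 (adjusted P = 0.175) and without the KO library S2 −2.76 (adjusted P = 0.114).

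The 2 calls, BGN higher and PRELP lower, were out of 6 SLRP genes tested. Over all genes 16.8% were called in NPCs, 8.45% higher and 8.36% lower, so no statement about the family as a group rests on this count. The median fitted log2 FC of the 6 genes was 1.68, or 0.74 with OGN at its lower bound, and that of all genes was −0.02. Both values for the 6 genes depend on DCN and OGN, whose highest counts were 12 and 10, in S1. Nothing is drawn from these medians.

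LUM, the keratan sulfate proteoglycan of the cornea, had 103 and 138 counts (4.88 and 7.06 CPM) in WT and 212 and 172 counts (10.5 and 7.75 CPM) in KO NPCs. The lowest KO library lay just above the highest WT library. The log2 FC of 0.61 (SE 0.292, edgeR adjusted P = 0.165) did not pass the test. From the summed counts the ratio of KO to WT was 1.53 (95% counting interval 1.30 to 1.80, which covers counting error only), beside 61.9 for BGN (55.7 to 68.8).

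FMOD, a modulator of collagen fibril assembly, had 44 and 6 counts (2.08 and 0.307 CPM) in WT and 34 and 19 counts (1.68 and 0.856 CPM) in KO NPCs. The KO values fell inside the range of the WT values. The fitted log2 FC of 0.07 (SE 0.820, edgeR adjusted P = 0.965) had no stable direction. It was −0.73 without S5, −0.49 without S1, −0.03 with library size as the only normalization, and 2.02 with an adjusted P of 0.0487 without S3.

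DCN and OGN were at the edge of detection. DCN, which binds TGF-β and several receptor tyrosine kinases, had 2 and 0 counts in WT and 12 and 3 in KO NPCs. The ratio of its summed counts was 7.18, with a 95% counting interval from 1.67 to 64.7, and the edgeR test gave an adjusted P of 0.205. No read of OGN was counted in WT, while S1 had 10 counts and S2 had 1, at least 1.82-fold higher against the floor per library (edgeR adjusted P = 0.132). Neither gene was called in NPCs at this depth, and nearly all the OGN counts came from S1.

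**Figure D1:**
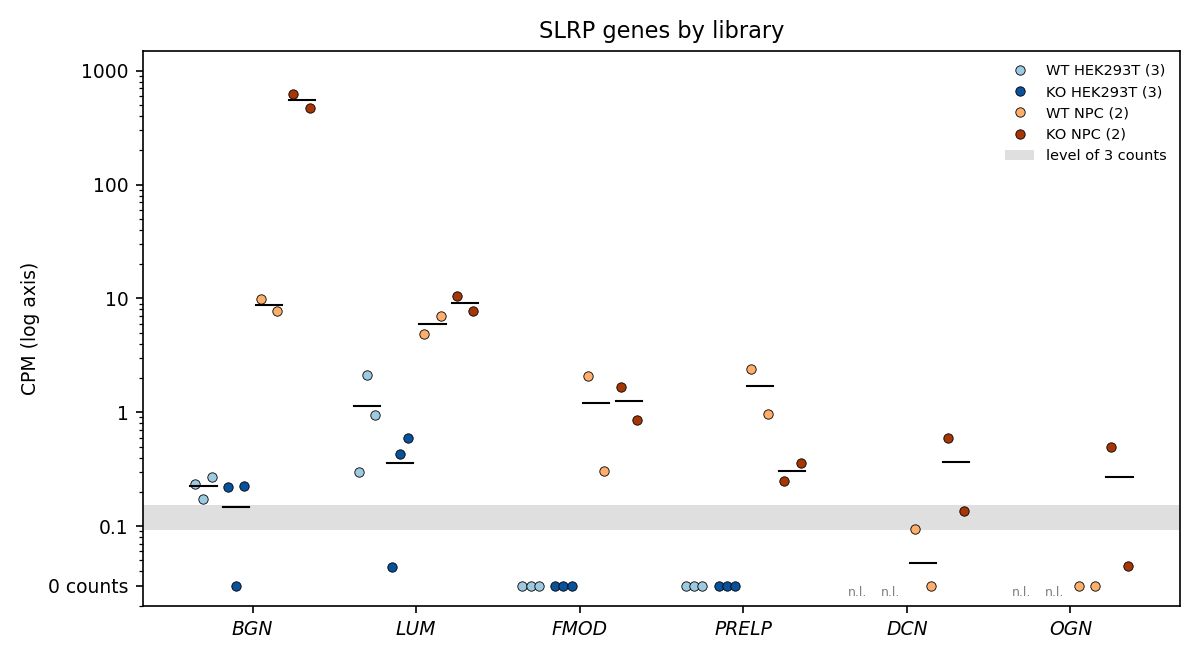
Level of each SLRP gene in each library in CPM on a log axis, with 1 point per library, a bar at each group mean, points without counts drawn at the foot, and n.l. where a gene was not listed in that table. BGN in the KO NPC libraries (629 and 474 CPM) stands above every other point, and PRELP is lower in both KO than in both WT NPC libraries.

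Scaled by length, the levels can be compared between genes. In WT NPCs, BGN had 4.12 and 3.21 CPM per kb of exon, LUM 1.83 and 2.64, FMOD 0.686 and 0.101, and PRELP 0.418 and 0.169. BGN and LUM did not overlap each other, while the ranges of FMOD and PRELP did. In KO NPCs, BGN reached 261 and 197 CPM per kb, LUM 3.92 and 2.90, FMOD 0.553 and 0.282, and PRELP 0.0428 and 0.0625, with no overlap between neighbours in this order. The annotated exons of DCN add up to 12941 bases over its many transcripts, so its level per kb is not compared.

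These levels changed the make-up of the SLRP counts. BGN held 51.1% and 48.1% of the counts of the 6 listed genes in the WT NPC libraries and 97.9% and 98.1% in the KO libraries. The 10 other genes taken for the family were ECM2, EPYC, KERA, OPTC, CHAD, CHADL, NYX, PODN, PODNL1 and TSKU, of which EPYC and KERA had no row in the NPC table. Of the family's counts in WT NPCs, TSKU (tsukushi, a secreted modulator of BMP and Wnt signalling) held 50.3% and 58.9%, and in KO NPCs 5.26% and 5.28%. TSKU itself was at 23.4 ± 2.58 CPM in WT and 31.4 ± 6.21 CPM in KO (n = 2 per group, log2 FC 0.42, edgeR adjusted P = 0.138). None of the 8 other family genes tested was called in NPCs, and 0 of them had an unadjusted P below 0.05, beside 16.8% and 40.3% of all genes. The 7 other than TSKU had at most 15 counts in any NPC library, a value reached by PODNL1. The DESeq2 and voom tests called 0 of them as well.

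**Figure D2:**
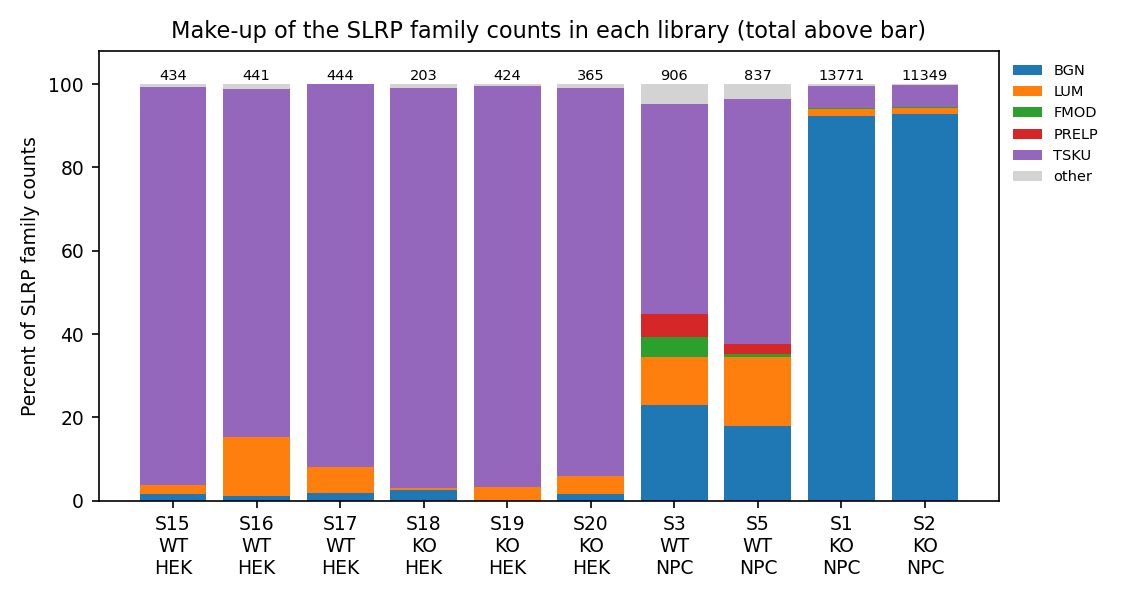
Share of SLRP family counts taken by each gene, in percent, for each of the 10 libraries, with the summed counts of the family above each bar. TSKU makes up the larger part in every HEK293T and WT NPC library, and BGN makes up 92.4% and 92.7% in the KO NPC libraries.

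In HEK293T cells the SLRP genes had few or no counts in both genotypes, the most being 62 counts (2.13 CPM) of LUM in the WT library S16. BGN had 7, 5 and 8 counts in WT and 5, 0 and 6 in KO, LUM 9, 62 and 28 in WT and 1, 14 and 16 in KO, and FMOD and PRELP 0 in all 6 libraries. For both BGN and LUM the genotypes overlapped. The log2 FC was −0.66 for BGN (SE 0.917, edgeR adjusted P = 0.910) and −1.61 for LUM (SE 0.775, adjusted P = 0.726). Over the alternatives these values ran from −1.45 (voom) to −0.02 (without the KO library S19) for BGN and from −2.14 (without S20) to −0.77 (without the WT library S16) for LUM, with no call. Of the 2 genes tested by edgeR 0 were called and 0 had an unadjusted P below 0.05, and DESeq2 and voom called 0 too. Over all genes 0.489% were called in HEK293T cells. A count of 0 allows FMOD and PRELP up to between 0.0921 and 0.131 CPM per library.

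Whether loss of ZNF274 acted differently on a gene in NPCs and in HEK293T cells was tested over all 10 libraries. For BGN the effect was larger in NPCs by 6.70 on the log2 scale (SE 0.768, edgeR adjusted P = 0.000168). For LUM the difference was 2.23 (SE 0.977, adjusted P = 0.149) and did not pass. Over all genes 12.2% passed this test. With HEK293T cells at 0 for FMOD and PRELP, no difference could be estimated for them. Cell type and count table coincide in this comparison, so a difference in preparation between the tables and a difference between the cells cannot be told apart.

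WT cells of both types were compared in the same fit, where cell type and count table again coincide and cannot be told apart. BGN was higher in WT NPCs than in WT HEK293T cells by 5.27 on the log2 scale (SE 0.374, edgeR adjusted P = 2.32e-07) and LUM by 2.41 (SE 0.651, adjusted P = 0.00702). FMOD was at least 11.8-fold and PRELP at least 16.8-fold higher in WT NPCs, against the floor per library. Without the WT NPC library S3 these bounds were 3.03-fold and 9.60-fold, and without S5 20.6-fold and 23.9-fold. BGN and LUM were thus called higher in NPCs, where 25.2% of all genes were. FMOD and PRELP were called too, but they passed the count filter through NPCs alone, so nothing is drawn from their calls. TSKU was higher by 0.81 (SE 0.212, edgeR adjusted P = 0.00591), short of an FC of 2. CPM was normalized within each count table. On that scale the levels of BGN from lowest to highest were 0.148 ± 0.128 CPM in KO and 0.226 ± 0.050 CPM in WT HEK293T cells (n = 3 each), then 8.81 CPM in WT and 551 CPM in KO NPCs. Only the HEK293T groups overlapped.

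**Figure D3:**
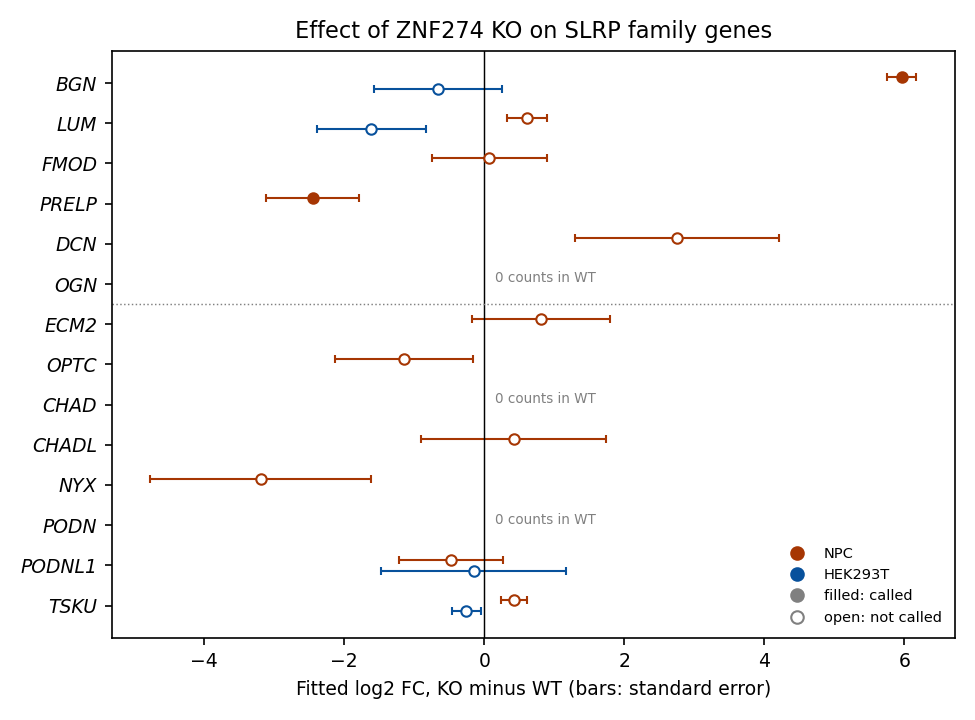
Fitted log2 FC of KO against WT for each SLRP family gene in NPCs and HEK293T cells, with bars of 1 standard error, filled points where the gene was called and no point where a group had 0 counts. BGN (5.96) and PRELP (−2.45) in NPCs are the filled points, and the genes below the dotted line are the other family members.

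Genes adjacent to the SLRP loci were examined because the study concerns genes silenced in clusters. The set was the 2 nearest listed genes on each side of each locus and any gene overlapping a member, leaving out SLRP family genes such as OPTC (beside PRELP) and ECM2 (beside ASPN), 18 genes in all. None rose and 1 fell in KO NPCs, beside 8.45% and 8.36% of all genes, and 8 had an unadjusted P below 0.05, as did 40.3% of all genes. Next to BGN, ATP2B3 (a plasma membrane calcium pump gene 8096 bases away) had 3 and 9 counts in WT and 6 and 2 in KO NPCs, and the overlapping HAUS7 had 4 and 7 in WT and 6 and 2 in KO. Neither followed BGN (log2 FC −0.63 and −0.50, edgeR adjusted P = 0.710 and 0.763). The gene that fell was ATP2B1, 1393263 bases from LUM, from 184 ± 57.4 to 81.3 ± 10.4 CPM (log2 FC −1.18, SE 0.213, adjusted P = 0.00678). At the chromosome 1 locus, BTG2, an antiproliferative gene, was at −0.83 (adjusted P = 0.0127), under an FC of 2, and ATP2B4 at 0.38 (adjusted P = 0.196). CENPP, which spans OGN, OMD and ASPN, was at 0.13 (adjusted P = 0.682). In HEK293T cells edgeR called 0 of the 15 neighbours tested, and 1 had an unadjusted P below 0.05.

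**Figure D4:**
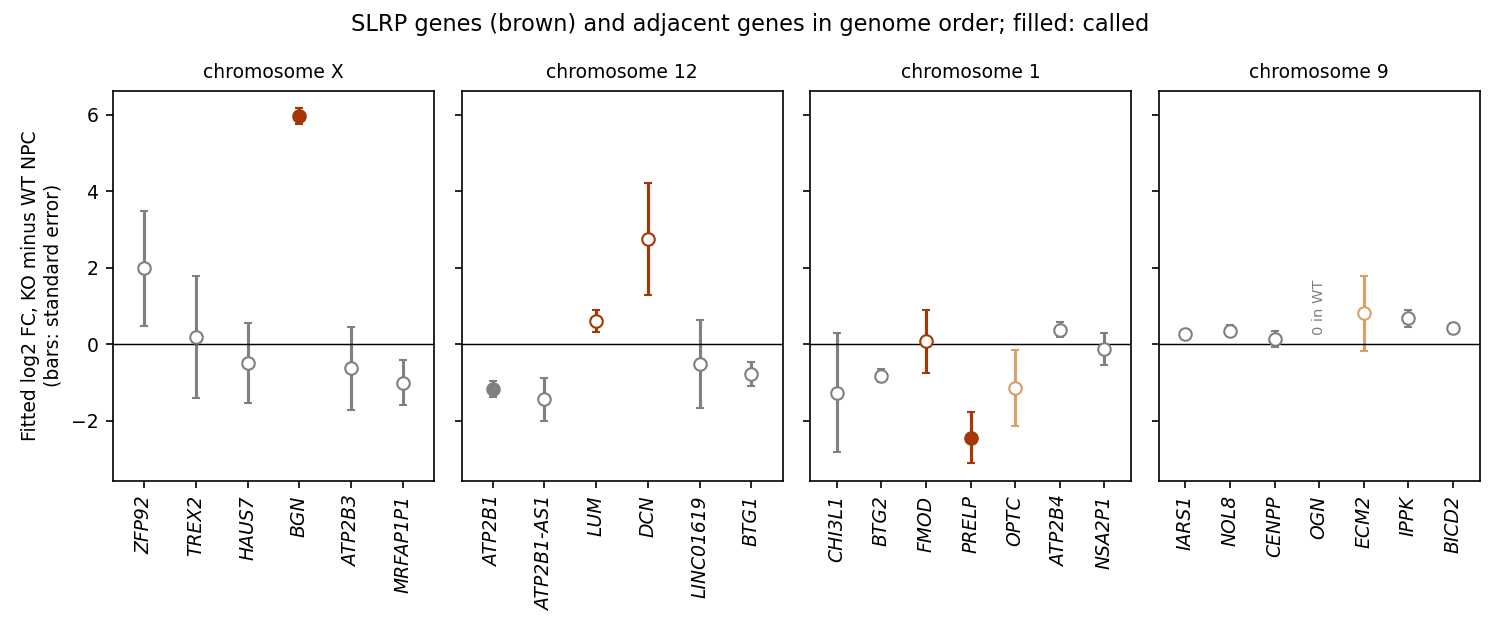
Fitted log2 FC of KO against WT NPCs for SLRP genes (brown, other family members light brown) and the adjacent listed genes (grey) in genome order at each locus, with bars of 1 standard error and filled points for called genes. BGN rises between neighbours that were not called, and ATP2B1 is the called neighbour.

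The enzymes that build the chains of SLRPs changed in part. Of 21 genes tested for chondroitin and dermatan sulfate synthesis, 8 rose and 2 fell in KO NPCs, with a median log2 FC of 0.66, while 8.45% of all genes tested rose and 8.36% fell. CHSY3, a chain polymerase, rose from 3.64 ± 0.132 to 16.1 ± 3.95 CPM (log2 FC 2.14, SE 0.261, edgeR adjusted P = 0.00138). DSE, the epimerase that turns chondroitin into dermatan sulfate, rose from 14.6 ± 1.35 to 52.7 ± 2.59 CPM (log2 FC 1.85, SE 0.148, adjusted P = 0.000275). Both KO libraries lay above both WT libraries for these genes. CHST7, a sulfotransferase, fell by 1.66 (SE 0.451, adjusted P = 0.0324). The abundant kinase gene FAM20B was at 0.48 (adjusted P = 0.105) and the polymerase gene CHSY1 at 0.59 (adjusted P = 0.0166), under an FC of 2. Of the xylosyltransferases that start the chains, XYLT2 rose by 1.60 and XYLT1 fell by 1.08. Among 11 keratan sulfate genes 0 fell and 2 rose, B3GNT2 (log2 FC 1.77, SE 0.165, adjusted P = 0.000481) and ST3GAL1 (1.32, SE 0.282, adjusted P = 0.0132), and the galactosyltransferase gene B4GALT1 was at 0.43 (adjusted P = 0.0552). Without the KO library S1, 1 keratan sulfate gene was called.

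The collagens that SLRPs bind went in both directions. Of 11 fibrillar chains 3 rose and 2 fell (median log2 FC 0.07), and of 6 fibril-associated chains 2 rose and 2 fell (median −0.38). Of all genes tested 8.45% rose and 8.36% fell, with a median of −0.02. COL1A1 rose from 601 ± 60.7 to 3480 ± 33.7 CPM and COL3A1 from 68.7 ± 29.2 to 829 ± 277 CPM (n = 2 per group, log2 FC 2.53 and 3.59, edgeR adjusted P = 3.46e-05 and 0.000536). COL2A1, the collagen of cartilage, fell from 340 ± 149 to 45.9 ± 19.1 CPM (log2 FC −2.89, adjusted P = 0.00178). COL1A2, whose chain joins that of COL1A1 in type I collagen, was at 953 ± 514 CPM in WT and 1003 ± 275 CPM in KO and its libraries overlapped (log2 FC 0.07, adjusted P = 0.903). Of the fibril-associated chains, COL16A1 rose from 1 and 4 counts to 263 and 190, and COL12A1 rose by 1.65 (adjusted P = 0.00675). COL9A1 fell by 1.51 (adjusted P = 0.00710) and COL9A2 by 1.18 (adjusted P = 0.0124). The fibril-associated chains gave 4 calls in all, 1 without S1 and 2 without S2.

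Of 19 receptors and growth factor partners of SLRPs tested, 10 rose and 1 fell, with a median log2 FC of 1.81, where 8.45% of all genes rose, 8.36% fell and the median was −0.02. TGFB2 rose from 68.6 ± 38.6 to 907 ± 96.0 CPM and TGFB1 from 3.61 ± 1.42 to 78.7 ± 17.9 CPM (log2 FC 3.72 and 4.45, edgeR adjusted P = 0.000616 and 0.000142), and the receptor gene TGFBR2 rose by 2.87 (adjusted P = 0.000815). CCN2, a matricellular protein bound by decorin, went from 570 ± 27.7 to 4058 ± 144 CPM (log2 FC 2.83, adjusted P = 2.26e-05). CCN4, to which biglycan and decorin bind, was at 0 in S3 and S5 and at 158 and 92 counts in S1 and S2, at least 40.4-fold higher. The innate immune receptors through which biglycan signals both rose, TLR4 from 244 and 567 counts to 1823 and 2346 and TLR2 from 1 and 1 count to 11 and 14. The decorin receptors EGFR and MET rose by 2.42 and 2.60, and KDR, called lower, had 472 and 2161 counts in WT and 270 and 264 in KO. LRP1, IGF1R and ITGB1 were within 0.08 of no change and were not called.

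Of 11 proteinases and proteinase enhancers that act on SLRPs or procollagens, 7 rose and 1 fell, with a median log2 FC of 1.74, against 8.45% higher, 8.36% lower and a median of −0.02 over all genes. The calls were 4 without the KO library S1 and 5 without S2. MMP14 rose from 35.5 ± 6.98 to 148 ± 14.6 CPM (log2 FC 2.06, edgeR adjusted P = 0.000267). ADAMTS4 rose by 3.20 (adjusted P = 0.00240). TLL1, a procollagen and probiglycan proteinase, had 364 and 19 counts in WT and 1809 and 1878 in KO (log2 FC 3.24, adjusted P = 0.0331), and ADAMTS5 135 and 5 in WT and 547 and 629 in KO (3.04, adjusted P = 0.0428). MMP2 fell by 2.85 (adjusted P = 0.000511). BMP1, which removes the propeptide of biglycan, was at 0.48 (adjusted P = 0.0424), under an FC of 2. In HEK293T cells edgeR called 0 genes of any of these lists, and up to 2 genes per list had an unadjusted P below 0.05, as did 7.12% of all genes.

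**Figure D5:**
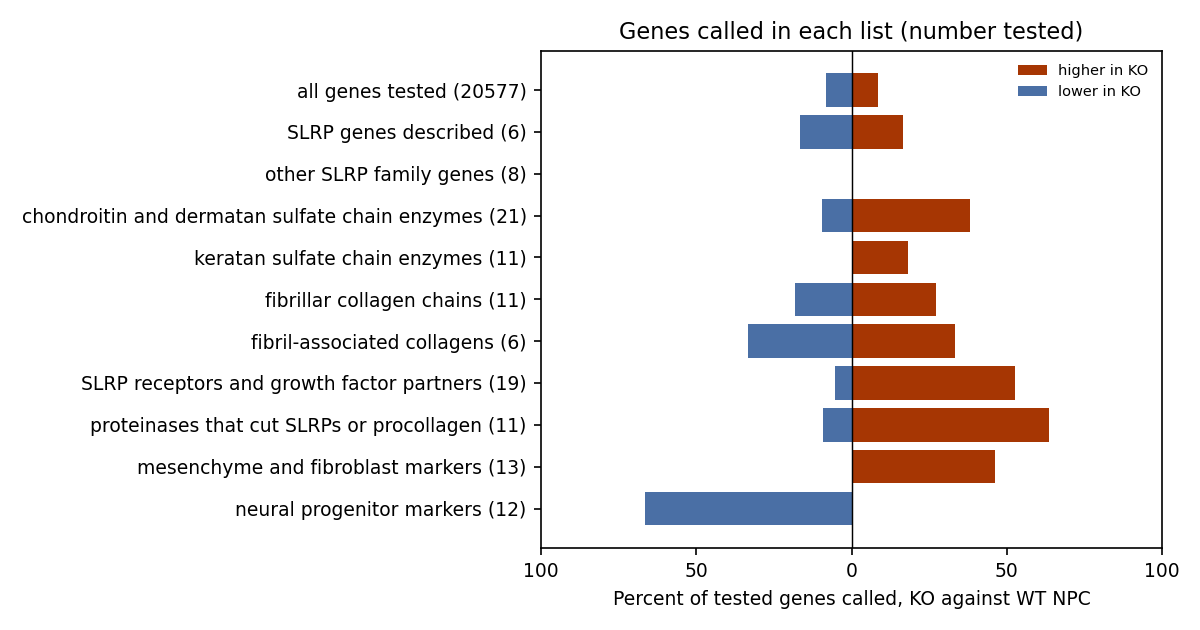
Percent of tested genes called higher (right) or lower (left) in KO than in WT NPCs for each gene list, with the number tested in parentheses. Over all 20577 genes the bars reach 8.45% and 8.36%. The 8 other SLRP family genes have no bar, and 8 of the 12 neural progenitor markers are called lower.

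Markers of cell types moved with genotype in the NPC libraries. Of 12 neural progenitor markers 8 fell and 0 rose, and the all-gene shares for this and the following marker lists are again 8.36% lower and 8.45% higher. SOX1 fell from 154 and 989 counts to 1 and 2, LHX2 from 407 and 568 to 8 and 3, FABP7 by 6.69 on the log2 scale, and SOX2 from 223 ± 5.53 to 16.9 ± 5.93 CPM. NES, by far the most abundant of them, was at 2630 ± 517 CPM in WT and 3135 ± 67.7 CPM in KO (edgeR adjusted P = 0.231), so the summed level of the list, 2937 and 3946 CPM in WT and 3257 and 3193 CPM in KO, overlapped. Without NES the sums were 673 and 950 CPM in WT and 74.2 and 106 CPM in KO. HES5 was at 0 in both KO libraries but had only 6 and 4 counts in WT, and was not called (adjusted P = 0.0824).

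Of 8 neuron markers 4 fell and 1 rose (3 called without S1). MAP2 fell by 2.82, DCX by 3.68 and SYT1 by 1.06, and ELAVL4, which rose, had 1 and 1 counts in WT and 23 and 7 in KO. STMN2 and TUBB3 were not called and their libraries overlapped. The sum of the list was 1084 and 1177 CPM in WT and 220 and 175 CPM in KO, mostly MAP2. The other 7 genes summed to 91.7 and 87.9 CPM in WT and 53.7 and 45.6 CPM in KO.

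Of 13 mesenchyme and fibroblast markers tested 6 rose and 0 fell. MEOX1 rose from 7 and 3 counts to 234 and 281, and POSTN from 6 and 19 to 367 and 33. TWIST2 was at 0 in all 4 libraries and TCF21 had at most 5 counts. The sums were 2216 and 1323 CPM in WT and 6107 and 5280 CPM in KO, and without COL1A1 1572 and 765 CPM in WT and 2651 and 1776 CPM in KO. COL1A2 and COL3A1 remain in the latter sums. These 3 collagen genes are also among the fibrillar chains above, so the rises of COL1A1 and COL3A1 count in both lists. Of 7 smooth muscle markers 3 rose, DES from 33 and 48 counts to 3750 and 3525, ACTG2 from 385 and 758 to 4477 and 4057, and TAGLN by 1.89 on the log2 scale. ACTA2, CNN1 and MYH11 were not called. The sums of this list were 893 and 1196 CPM in WT and 3991 and 3904 CPM in KO, and without TAGLN 79.0 and 128 CPM in WT and 489 and 409 CPM in KO.

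Neural crest markers rose in 3 of 6, with sums of 1.23 and 4.61 CPM in WT and 80.2 and 61.3 CPM in KO. PAX3 had 3 and 15 counts in WT and 882 and 1145 in KO, SOX10 0 and 2 in WT and 146 and 31 in KO, and NGFR rose by 3.57. Meninges markers rose in 4 of 5, among them FOXC2 by 4.64, PTGDS by 3.95 and TBX18 (at least 50.5-fold against the floor per library). Their sums overlapped, at 174 and 210 CPM in WT and 213 and 195 CPM in KO, since ZIC1, which was not called, made up at least 75.6% of each. Without ZIC1 the sums were 3.83 and 1.74 CPM in WT and 48.6 and 47.6 CPM in KO. Endothelial markers rose in 3 of 5 (TIE1 by 4.82, CDH5 by 3.02 and VWF by 1.64), with sums of 26.8 and 65.4 CPM in WT and 75.0 and 103 CPM in KO. TEK, the most abundant of them, was at −0.01 (adjusted P = 0.985).

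Cartilage and tendon markers rose in 3 of 6 and 1 fell. ACAN had 1 and 1 counts in WT and 78 and 17 in KO, TNMD was at least 11.1-fold higher and SOX9 rose by 1.64. Their sums went the other way, from 484 and 257 CPM in WT to 168 and 120 CPM in KO, and were mostly COL2A1 in WT. Of 5 pluripotency markers ZFP42 rose by 3.17, and LIN28A and DNMT3B fell by 5.62 and 1.92. DPPA4 was at −0.31 (adjusted P = 0.0865). The sums were 208 and 243 CPM in WT and 94.6 and 80.9 CPM in KO. Without S1 the calls were 1 for neural crest and 1 for endothelial markers, and without S2 1 for endothelial markers. The part of these cell type markers in the changes of BGN and PRELP was not tested.

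Across the 10 libraries, the genes whose log2 CPM followed that of BGN most closely among 15224 genes were ABR (Pearson r = 0.998), TMBIM1 (0.997) and PLXNA2 (0.996). For PRELP they were NETO1 (0.997), ENSG00000270163 (0.995) and LMX1A (0.994), for FMOD PNMA8B (0.993), ITIH3 (0.993) and AP3S1 (0.988), and for LUM UBE2B (0.981), ENSG00000227992 (0.981) and KLHL9 (0.979). Between members, r was 0.821 for BGN with LUM, 0.894 for BGN with FMOD and 0.665 for BGN with PRELP, which put these genes at places 3111, 1855 and 4703 in the order of likeness to BGN. It was 0.822 for LUM with FMOD, 0.748 for LUM with PRELP and 0.877 for FMOD with PRELP. FMOD and PRELP had no counts in any HEK293T library, so nothing is drawn from their places. Many genes outside the family were closer to BGN than LUM was. These values describe 10 libraries that fall into separate groups by cell type and genotype, and the cell types also differ in count table.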

How the data were processed

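RNA-seq reads were mapped to hg19 with HISAT2 and uniquely mapped reads were counted per gene with featureCounts. The authors deposited raw counts, 1 table per cell type, and give no tool versions in the sources used here. Samples were grouped by the genotype and cell type in their labels. The test was the quasi-likelihood test of edgeR 4.0.16 (R 4.3.3, TMM, Benjamini-Hochberg adjustment over all genes), keeping genes whose total is at least the number of libraries. Calls required an FC above 2 with an adjusted P under 0.05. The study's own test, voom (limma 3.58.1), and DESeq2 1.42.0 served as alternatives. CPM values are TMM-normalized and means carry the SD. GENCODE v44lift37 gave positions, and symbols for 23273 of 24050 identifiers. The SLRP genes, the lists and the tests were chosen with earlier results of these data known. Genes named from a list were its 3 largest called changes and 2 most abundant members, and for each SLRP gene with a group mean of at least 1 CPM the 3 best correlated genes, with others named for their role after their values were seen. Floors and counting intervals cover counting error only.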

Additional observations from a re-analysis of the deposited data

Results flagged for a closer look

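The KO effect on BGN differed between the cell types by 6.70 on the log2 scale (NPC minus HEK293T, SE 0.768, edgeR adjusted P = 0.000168), by a test of the difference itself. BGN had 209 and 151 counts in WT and 12727 and 10521 in KO NPCs, against 7, 5 and 8 in WT and 5, 0 and 6 in KO HEK293T cells. The SE of the BGN log2 FC was 0.917 in HEK293T cells and 0.211 in NPCs.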

How the results depend on the processing

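BGN was called higher in NPCs in all 12 alternatives to its fit, with a log2 FC from 5.75 to 6.15. The number of SLRP genes called in NPCs was 2, and it was 1 with voom, 1 with all 10 libraries in one fit (4 genes tested) and 1 to 2 with each library left out in turn, being 1 without the KO library S1 and 1 without the KO library S2. The gene lost was PRELP, at −2.28 (adjusted P = 0.0677) with voom and −2.44 (adjusted P = 0.0514) in the joint fit. Without S3 the count stayed at 2, with FMOD (2.02, adjusted P = 0.0487) in place of PRELP. FMOD changed sign at −0.03 with library size alone, −0.73 without S5 and −0.49 without S1. The cause was not tested. Other ranges were 0.36 to 0.89 for LUM, 1.37 to 5.92 for DCN and 2.88 to 6.34 for OGN, whose fitted values depend on the prior count. In HEK293T cells 0 were called in all 15 alternatives, the number that differed in effect between cell types was 1 in all 18, and 4 were higher in WT NPCs than in WT HEK293T cells in all 13. Among those 4 genes, FMOD and PRELP passed the count filter through NPCs alone. Scaling by library size alone moved the median log2 FC of all genes in NPCs from −0.022 to −0.13 and in HEK293T cells from 0.011 to 0.098. List counts were also run under these alternatives, chosen after seeing the data, and beyond the proteinases moved by over 1.5 times for keratan sulfate enzymes, fibril-associated collagens and neuron, neural crest and endothelial markers when a KO library was left out, and for neural crest markers with voom. No paired analysis was made, because the labels do not say which clone or parental line gave each library. A figure legend of the study describes NPC expression of protocadherin genes as an average over 2 parental cell lines. With 2 libraries per NPC group, each lone library in such a fit is assumed to vary like the rest. In the KO NPC libraries S1 and S2, DCN had 12 and 3 counts and OGN 10 and 1. Whether depth or this spread limited their calls was not tested.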
